A study of Mus musculus with 2 samples.

Results

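Genes of antigen presentation by MHC class I, 10 in all, were followed through the cells of B16F10 melanomas: the light chain B2m, the heavy chains H2-K1 and H2-D1, the peptide transporter subunits Tap1 and Tap2, the loading factor Tapbp, the immunoproteasome subunits Psmb8, Psmb9 and Psmb10, and the transactivator Nlrc5. They were chosen by name, not by their values, and all 10 were among the 27635 genes of the expression table. The melanoma line had been placed under the skin of mice, and 14 days later CD3-positive cells were enriched from the tumours on magnetic beads and captured in a single BD Rhapsody run with TAS-Seq libraries, with about 20000 cells loaded. The titles name wild type (WT) and Nr4a KO mice, pooled in this 1 capture; which Nr4a alleles were deleted in which cells, and which of the 6 hashtags (A0301 to A0306, antibody tags that mark the source of a cell) belonged to which genotype, was not stated in the labels. No comparison of genotypes was therefore made, and all values below come from 1 sample.

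MHC class I molecules display short peptides from a cell's own proteins to CD8 T cells. The peptides are cut by the proteasome, in which interferon-induced subunits can take the place of constitutive ones, pumped into the endoplasmic reticulum by the TAP transporter, and loaded with the help of tapasin onto a heavy chain paired with beta-2 microglobulin. Interferon gamma from T cells raises transcription of these genes through factors that include IRF1 and NLRC5, and B16 melanoma is known as a line with little class I on its surface until it meets interferon.

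After removing barcodes with fewer than 500 genes or more than 25% mitochondrial counts, 11318 of 12016 barcodes remained. They were clustered on genes other than the class I, class II and interferon genes followed here, and named from markers. The T cell-like class held 7625 cells (67.4%), the macrophage-like class 1512 cells (13.4%), the melanoma-like class 1021 cells (9.02%), the dendritic cell-like class 261 cells and the neutrophil-like class 138 cells, so cells named for other classes were present in this CD3-selected fraction. The melanoma-like class carried its 8 markers (Pmel, Mlana, Dct and others) at a summed level of 37498 CPM (counts of a gene over all counts of its cells, scaled to 1000000) in cells without and 37672 CPM in cells with interferon-induced genes. It comprised 2 clusters, the smaller of which (147 cells) was led by the interferon-induced genes Apol6, Ubd and Iigp1. The T cell-like class took in a cluster of 1247 cells led by Klra7, Klra1 and Cd7, with Klrb1c, Xcl1 and Trdc among its leading genes, several of which NK cells use as well. Its 9 T cell markers summed to 4684 CPM and its 4 NK cell markers to 335 CPM, against 6335 and 52.2 CPM in the other T cell-like cells, and its mean log2 fold of the T cell markers was 0.52. For T cell clusters, the majority here, 5 detected markers were asked for in place of a mean log2 fold of 1. Clusters holding 735 cells stayed unnamed, among them 273 shallow cells with melanoma markers and 55 cells whose macrophage markers had a mean log2 fold of 0.93. The remaining unnamed clusters, of 270 and 137 cells, had all 9 T cell markers detected. They had more markers of another class than of T cells among their 10 leading genes. Their cells are therefore missing from all T cell-like values below, those of CD8 cells included. Total counts ran from 4138 to 892142 per barcode with a median of 25960.5, and the class medians were 180267.5 and 209829 counts for the melanoma-like cells without and with interferon-induced genes, 73731 for macrophage-like and 20068 for T cell-like cells.

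The promoters of the class I chains are shown because the chain genes moved together in the melanoma cells. RefSeq windows of the 250 bases before the start site (GRCm38.p6) were at hand for 8 of the 10 genes, all but Tap2 and Nlrc5. Capitals mark matches, on either strand, to motifs chosen after the sequences were seen, the longer ones read from the B2m and H2-K1 windows themselves: an IRF-type motif GAAANNGAAA, the class I interferon site GAAGTGAAAC, the kappa B motifs GGGGATTCCCC and GGGAAAGTCC, the X2-like hexamer TGACGC and the CCAAT box. The sequences run 5′ to 3′ on the strand of the gene and end at the last base outside annotated exons, chr2:122147437-122147685 on the plus strand for B2m and chr17:34000348-34000597 on the minus strand for H2-K1.
B2m: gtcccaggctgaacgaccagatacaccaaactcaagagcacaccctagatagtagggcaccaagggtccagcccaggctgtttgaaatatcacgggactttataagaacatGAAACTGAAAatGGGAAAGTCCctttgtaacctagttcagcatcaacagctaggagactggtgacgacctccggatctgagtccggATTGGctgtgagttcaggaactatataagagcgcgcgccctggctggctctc
H2-K1: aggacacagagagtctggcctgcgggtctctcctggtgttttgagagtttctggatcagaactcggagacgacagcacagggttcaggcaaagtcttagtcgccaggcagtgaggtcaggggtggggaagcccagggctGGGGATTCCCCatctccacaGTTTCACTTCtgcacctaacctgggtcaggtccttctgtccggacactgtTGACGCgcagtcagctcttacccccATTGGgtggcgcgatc

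The B2m window held the IRF-type motif, found in 2.98% of 32851 promoter windows of this length, 2 bases before the kappa B motif GGGAAAGTCC, found in 0.119%. H2-K1 and H2-D1 both held the kappa B motif GGGGATTCCCC (0.0304% of windows) followed by the class I interferon site (0.11% of windows) on the opposite strand, and both held TGACGC (6.12%) and a CCAAT box (33.8%), a pair found together in 2.08% of windows. The 30-base stretches from the kappa B motif to the interferon site, at chr17:34000429-34000458 for H2-K1 (minus strand) and chr17:35262923-35262952 for H2-D1 (plus strand), differed at 1 base. By the GENCODE M21 annotation the H2-K1 stretch lies before the first exon, while the H2-D1 stretch lies within annotated exon sequence.
H2-K1: GGGGATTCCCCatctccacaGTTTCACTTC
H2-D1: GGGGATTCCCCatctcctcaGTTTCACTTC

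Over their aligned 190 bases the H2-K1 and H2-D1 windows were 87.4% identical. The RefSeq starts of Tap1 and Psmb9 lie 226 bases apart, and the genes run in opposite directions on chromosome 17. Their windows share 225 bases. Neither window held the IRF-type motif, the class I interferon site or a kappa B motif, and both held the same CCAAT box. Psmb8 held 1 GAS-type motif (TTCNNNGAA, 7.02% of windows). By GENCODE M21, in which Tap1 and Psmb9 overlap, the Tap1, Psmb9, Psmb8, Tapbp and H2-D1 windows lie wholly within annotated exons. Matches there, or their absence, therefore do not describe sequence upstream of all annotated exons. These matches describe letters only. By the GENCODE M21 annotation of GRCm38, 7 of the 10 genes lie on chromosome 17, from Tapbp at 33915899-33929292 through H2-K1 (33996017-34000347), Psmb9 (34181987-34187764), Tap1 (34187553-34197225), Psmb8 (34197721-34201454) and Tap2 (34203527-34216321) to H2-D1 (35262730-35267499). B2m lies on chromosome 2 (122147686-122153083), and Nlrc5 (94434356-94527272) and Psmb10 (105935735-105938444) on chromosome 8. The heavy chain genes belong to a family of close copies. Of the 100-base windows of the longest annotated transcript, 4.64% of those of H2-D1 and none of those of H2-K1 occurred in a transcript of another gene, so a small part of the H2-D1 counts could come from its copies.

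The melanoma-like cells were split by 2 genes that interferon induces, Ubd (a ubiquitin-like modifier) and Iigp1 (a GTPase): 439 cells had 5 or more counts of either gene and 582 had fewer. At the edge of this split lay 199 cells with a highest count of 1 to 4 and 122 with 5 to 20. Beside each pooled value the spread is the range over the hashtags with 20 or more cells in each group; hashtags are not known to be replicates of a condition, so no p-value is given. A gene was called higher or lower where its pooled log2 ratio was at least 1 in size and every such hashtag had the same sign. Without replicated samples this call is a description of 1 capture. Where a sign is said below to be shared by every hashtag without a call, the share of all genes for which this holds was not determined.

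Class I and loading genes were higher in the melanoma cells with Ubd or Iigp1. Of the 10 genes 9 were called higher and none lower, with a median log2 ratio of 1.62, against -0.02 over 13009 genes examined, of which 2.32% were called and 2.04% called higher. Nlrc5 was the exception, since 1 hashtag went against the rest. The ratios within each of the 4 hashtags were smaller than the pooled ones for those 9 genes, with a median over the 10 genes of 1.27 when the middle of the within-hashtag ratios was taken (an alternative added after the data were seen). B2m (0.80) and Tapbp (0.88) then fell short of 1 and 7 of the 10 kept their call, where 2.01% of 13009 genes were called. Hashtags contributed unequally to the groups. The share of melanoma cells with Ubd or Iigp1 was 26.1% in A0305 (80 cells, 95% exact binomial interval 21.2% to 31.3%), 32.6% in A0306 (94 of 288) and 40.6% in A0302 (28 of 69). It was 60.4% in A0301 (87 of 144), 92.5% in A0304 (37 of 40, 79.6% to 98.4%) and 5 of 6 cells in A0303. Of the cells without a hashtag call, 108 of 167 (64.7%) had Ubd or Iigp1, with B2m at 8678 CPM over all 167. These cells, A0303 and A0304 entered only the pooled ratios.

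B2m, the light chain that every class I molecule needs, stood at 4007 CPM in A0301, 3285 in A0302, 3796 in A0305 and 3840 in A0306 in the cells without Ubd or Iigp1. In the cells with these genes it stood at 7155, 5568, 6813 and 6071 CPM in the same hashtags, and at 12181 CPM in A0304, which had too few cells without them. No hashtag of one group overlapped the other. How often hashtag levels separate in this way over all genes was not determined, for B2m or for the genes below. The pooled levels of 3789 and 8129 CPM (log2 ratio 1.10, 0.66 to 0.84 within hashtags) make a 2.15-fold difference. Exact Poisson intervals of these pooled levels, 3777 to 3800 and 8111 to 8148 CPM, cover counting error only and are far narrower than the spread over hashtags.

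H2-K1, one of the classical heavy chains of this mouse strain, stood at 796, 732, 695 and 689 CPM without Ubd or Iigp1 in A0301, A0302, A0305 and A0306. With them it stood at 1791, 1667, 1550 and 1294 CPM, and at 3200 CPM in A0304. The pooled log2 ratio was 1.56 (706 to 2076 CPM), and within hashtags it ran from 0.91 to 1.19.

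H2-D1, the other classical heavy chain, rose by a log2 ratio of 1.34, from 707 to 1785 CPM, with 0.65 to 1.11 within hashtags. Its highest hashtag without Ubd or Iigp1 was at 729 CPM and its lowest with them at 1139 CPM. The ratios of the 3 chain genes within hashtags ran from 0.65 to 1.19.

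Tap1, a subunit of the peptide transporter, stood at 33.0, 18.8, 19.4 and 24.4 CPM in A0301, A0302, A0305 and A0306 without Ubd or Iigp1, and at 117, 44.1, 75.1 and 66.0 CPM with them. A0304 had 167 CPM. The pooled log2 ratio of 2.20 (4.58-fold, 1.19 to 1.93 within hashtags) was the second largest of the 10, and all hashtags with the interferon-induced genes lay above all those without.

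Tap2, its partner, went from 26.2 to 84.4 CPM (log2 ratio 1.69, 1.07 to 1.56 within hashtags). Tapbp, which encodes tapasin, the bridge between transporter and heavy chain, went from 162 to 369 CPM (1.19, 0.77 to 1.03). For both genes the hashtag ranges of the groups did not overlap: 22.6 to 26.2 against 54.3 to 125 CPM for Tap2, and 154 to 177 against 269 to 433 CPM for Tapbp. The ranges with Ubd or Iigp1 take in A0304, which had too few cells without these genes, so the groups do not cover the same hashtags.

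Psmb9, a catalytic subunit of the immunoproteasome, had the largest pooled difference of the 10 genes. It stood at 63.3, 64.0, 43.7 and 57.5 CPM in A0301, A0302, A0305 and A0306 without Ubd or Iigp1, at 298, 192, 202 and 173 CPM with them, and at 495 CPM in A0304. The pooled log2 ratio was 2.51 (5.68-fold), with 1.58 to 2.23 within hashtags.

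Psmb8, the second such subunit, went from 147 to 564 CPM (1.94, 1.19 to 1.76 within hashtags), and its lowest hashtag with Ubd or Iigp1, 350 CPM, lay above its highest without, 171 CPM. Psmb10, the third, went from 44.3 to 120 CPM (1.44, 0.93 to 1.23). The constitutive subunits that these replace were not called: Psmb5 stood at 211 and 201 CPM (log2 ratio -0.07), Psmb6 at 310 and 289 CPM (-0.10) and Psmb7 at 331 and 295 CPM (-0.17, -0.29 to -0.10 within hashtags).

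Nlrc5, the transactivator of class I genes, was low in melanoma cells. It stood at 0.965, 5.36, 2.81 and 4.08 CPM in A0301, A0302, A0305 and A0306 without Ubd or Iigp1 and at 20.1, 5.20, 8.90 and 10.6 CPM with them, so that A0302 had a log2 ratio of -0.04 and the others 1.33 to 3.83. Its pooled log2 ratio of 2.00 (3.52 to 14.3 CPM) was not called; it was called without A0302 (2.11), with 10 or more counts of either gene asked for (2.09) and with a mean over cells (1.89).

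**Figure D1:**
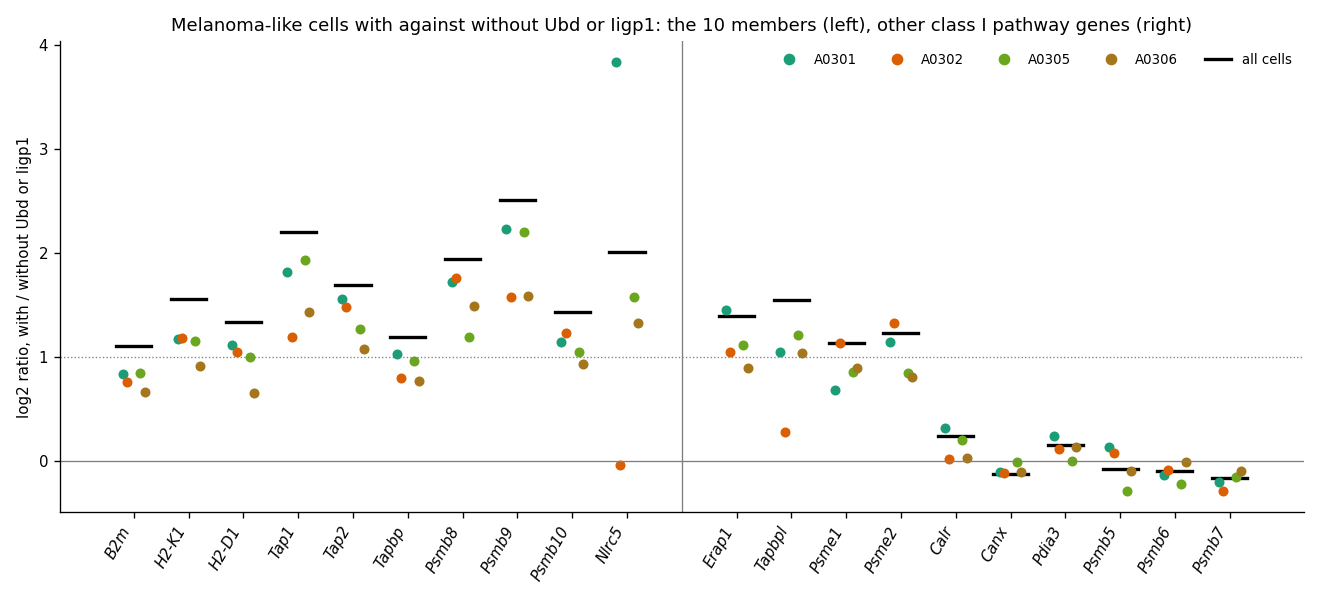
Log2 ratio of the level in melanoma-like cells with against without Ubd or Iigp1, for the 10 members (left) and 10 other class I pathway genes (right); points are hashtags with 20 or more cells per group, bars all cells, the dotted line a log2 ratio of 1. Bars of 9 members lie above their points, and the points of Nlrc5 spread from -0.04 to 3.83.

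The depth of the cells was not the same in the groups, with 209829 against 180267.5 median counts. When each cell was thinned to 10000 counts, 92.3% of the cells with Ubd or Iigp1 still had 5 or more counts of H2-K1 against 60.7% of those without (100% and 96.9% unthinned). For Psmb8 the thinned shares were 53.1% and 8.28% (96.8% and 78.0% unthinned), for Psmb9 24.6% and 2.07% (86.1% and 49.7%) and for Tapbp 35.5% and 8.45% (95.4% and 84.7%). At this depth Tap1, Tap2, Psmb10 and Nlrc5 reached 5 counts in under 6% of cells of either group, too few to read. All nucleated cells carry some class I, so no class here could serve as a blank for these shares.

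Reads from immune cells were present in melanoma barcodes. The 9 T cell markers summed to 96.7 CPM (70.5 to 104 over hashtags) with Ubd or Iigp1 and 77.3 CPM (44.5 to 97.5) without, and the 11 macrophage markers to 657 CPM (579 to 803) and 664 CPM (495 to 701), with none of either list at 0 in either group. If all of these came with whole T cell and macrophage transcriptomes, they would bring 564 CPM of B2m to the cells without Ubd or Iigp1, 14.9% of its level there, and 578 CPM (7.11%) to the cells with them. For the other genes the carried amount in the cells without came to 28.5% of the level for H2-K1, 28.0% for H2-D1, 29.7% for Tap2, 17.3% for Tapbp, 26.8% for Psmb8, 36.3% for Psmb9 and 33.9% for Psmb10. It reached 67.9% for Tap1 and 157% for Nlrc5, so that the level of Nlrc5 in these cells, 3.52 CPM, lay below the 5.51 CPM that such reads would carry. The macrophage-like profile used for this itself held T cell markers at 2388 CPM, so T cell reads were partly counted in both parts. The carried amounts are therefore overstated, and whether these cells express Nlrc5 themselves cannot be told from them. The carried amounts were nearly equal in both groups, and without the cells that held marker genes of other classes the median log2 ratio of the 10 genes was again 1.62 with 9 called (2.13% of 12145 genes were).

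**Figure D2:**
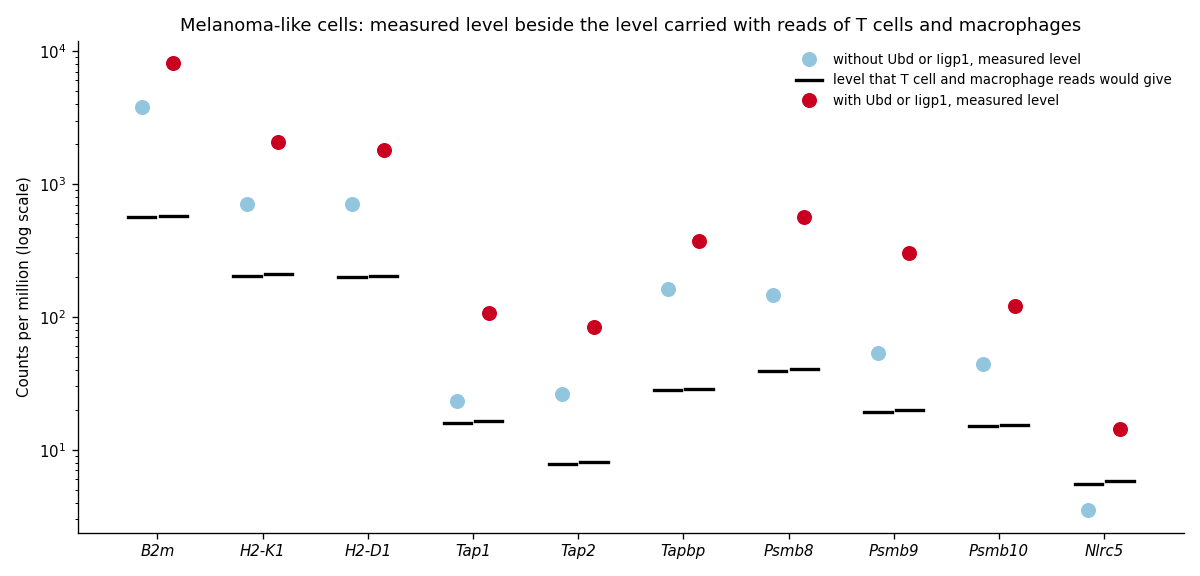
Measured CPM (circles, log axis) of the 10 genes in melanoma-like cells without (blue) and with (red) Ubd or Iigp1, and the CPM that T cell and macrophage reads in these barcodes would carry (black bars). Nlrc5 in cells without Ubd or Iigp1 is the only circle under its bar, and Tap1 in these cells is close to its own. The bars are overstated, since the macrophage profile also held T cell reads.

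Of the class I genes, B2m, H2-K1, Tap1, Psmb8 and Psmb9 were graded with the amount of Ubd plus Iigp1 in the cell. Over bands of under 10 CPM (507 cells), 10 to 100 (196 cells), 100 to 1000 (121 cells) and 1000 CPM or more (197 cells), B2m stood at 3746, 4746, 7035 and 11008 CPM. H2-K1 stood at 688, 1007, 1611 and 3066 CPM over the same bands, Tap1 at 22.5, 35.7, 78.0 and 176 CPM, Psmb8 at 143, 219, 428 and 881 CPM, and Psmb9 at 51.7, 91.7, 189 and 511 CPM.

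The order of the bands held for these 5 genes within each of the 3 hashtags that had 20 or more cells in every band (A0301, A0305 and A0306). In the top band Psmb9 was at 436 CPM in A0301, 463 in A0305, 396 in A0306 and 613 in A0304. Psmb10 stood at 44.1 and 42.5 CPM in the lower bands and then at 88.1 and 195 CPM. Nlrc5 went from 3.74 CPM in the lowest to 20.7 CPM in the highest band, and in A0306 its level at 100 to 1000 CPM of Ubd plus Iigp1 (2.02 CPM) was the lowest of the bands.

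**Figure D3:**
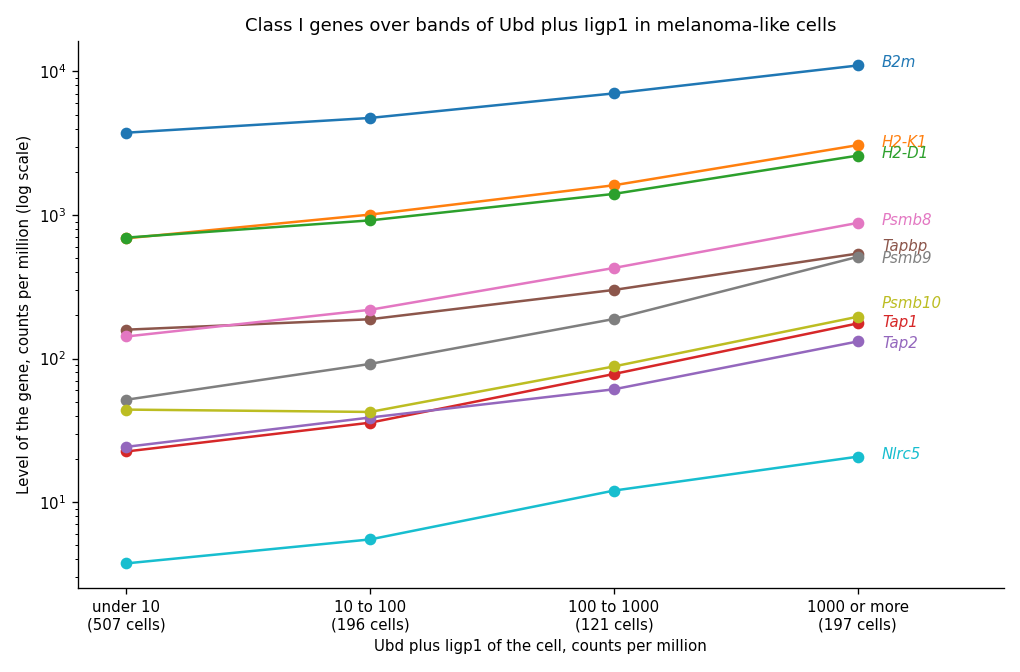
CPM of each member (log axis) in melanoma-like cells in 4 bands of Ubd plus Iigp1, all hashtags together. From the lowest to the highest band B2m goes from 3746 to 11008 CPM and Psmb9 from 51.7 to 511 CPM; Psmb10 is level over the lower bands.

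Cells with both genes at 5 or more counts (134 cells) against cells with neither had a median log2 ratio of 2.30, with B2m at 1.65, Tap1 at 2.93 and Psmb9 at 3.40; only 1 hashtag had 20 cells in both groups here, so the calls of all 10 genes (7.06% of 12316 genes were called) rest on that hashtag and the pooled value. Across 872 melanoma cells thinned to 100000 counts, Spearman's rho with Ubd plus Iigp1 was 0.65 for Psmb8 and Psmb9, 0.62 for B2m, 0.61 for H2-K1, 0.60 for H2-D1, 0.57 for Tap1, 0.52 for Tapbp, 0.49 for Tap2, 0.43 for Psmb10 and 0.29 for Nlrc5. It was -0.00 for Psmb5, -0.03 for Psmb6, -0.11 for Psmb7 and -0.08 for the pigment gene Pmel. Among the 10 genes rho ran from 0.19 (Tap2 with Nlrc5) to 0.83 (H2-K1 with H2-D1). These cells share a library and, within a hashtag, a source, so the values are descriptions.

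The wider class I pathway was followed in a second list. Of 19 further genes, 17 were examined and 8 were called higher, none lower, with a median log2 ratio of 0.89. The called genes were the non-classical heavy chains H2-T23 (4.30-fold, from 62.2 to 268 CPM), H2-T22 (1.96), H2-M3 (1.61) and H2-Q4 (1.35), the peptide-trimming protease Erap1 (1.39), the tapasin relative Tapbpl (1.55) and the proteasome activator subunits Psme1 (1.13) and Psme2 (1.23). The heavy chain genes H2-Q7 (0.69, -0.04 to 1.70 within hashtags) and H2-K2 (0.89, -0.47 to 0.48) and the class I-like gene Mr1 (0.11) were not called. The general chaperones of the endoplasmic reticulum that also serve class I loading were not called either: Calr had a log2 ratio of 0.24, Pdia3 0.15 and Canx -0.13. The lowest 3 among the examined genes were Psmb7, Canx and Psmb6.

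Interferon-induced genes, class II genes and regulators of class I transcription were examined beside them. The interferon list had 22 of 23 genes called higher, with a median of 3.81, led by the GTPases Gbp4 (5.54), Gbp2 (5.30) and Igtp (5.11); Irf1, a factor that binds class I promoters, had 2.85, and Cxcl9 (1.85, -0.19 to 4.27 within hashtags) was not called. Of the receptor chains, kinases and factors that bind the X and Y boxes, 0 of 11 were called, from Rfx5 at 0.43 to Nfyb at -0.33. All 7 class II genes were called higher, from H2-DMb1 (3.03-fold, from 53.2 to 161 CPM) to Cd74 (4.20) and their transactivator Ciita (6.68, from 0.29 to 35.0 CPM). The interferon and class II lists hold known targets of the pathway that induces Ubd and Iigp1, so their counts are no independent evidence for the split.

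Beside immune cells of the same tumours, the melanoma cells without Ubd or Iigp1 were low. Against T cell-like cells 9 of the 10 genes were called lower, with a median log2 ratio of -1.95, against -0.15 over 15054 genes, of which 52.0% were called and 27.8% called lower. Nlrc5 differed most (-4.94, 3.52 against 109 CPM), then Tap1 (-3.30, 23.5 against 232 CPM), Tap2 (-2.32), Psmb9 (-2.25) and H2-K1 (-2.09, 706 against 3005 CPM). B2m was closest, at -0.73 (3789 against 6274 CPM; -0.91 to -0.61 over 4 hashtags), and was not called. Tapbp (-1.08) fell short of the call on cells thinned to 20000 counts (-0.91) and under median-of-ratios scaling (-0.93).

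In melanoma cells with Ubd or Iigp1, 8 of the 10 genes were not called apart from T cell-like cells. Psmb8 was at 0.24, Psmb9 at 0.25, B2m at 0.37, Tapbp at 0.11, Psmb10 at -0.37, H2-D1 at -0.40, H2-K1 at -0.53 and Tap2 at -0.63, each with hashtags on both sides of 0. Tap1 (-1.10, -2.20 to -0.49 over 5 hashtags) and Nlrc5 (-2.94, -4.18 to -2.45) were called lower, where 48.9% of 14980 genes were called. Against macrophage-like cells Nlrc5 alone was called (-2.21, -3.01 to -1.62; 44.9% of 14141 genes were called), while Tap1 at -0.95 and Psmb10 at -0.80 were lower in every hashtag but under 1 in size. These comparisons share the melanoma and T cells of the ones above.

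**Figure D4:**
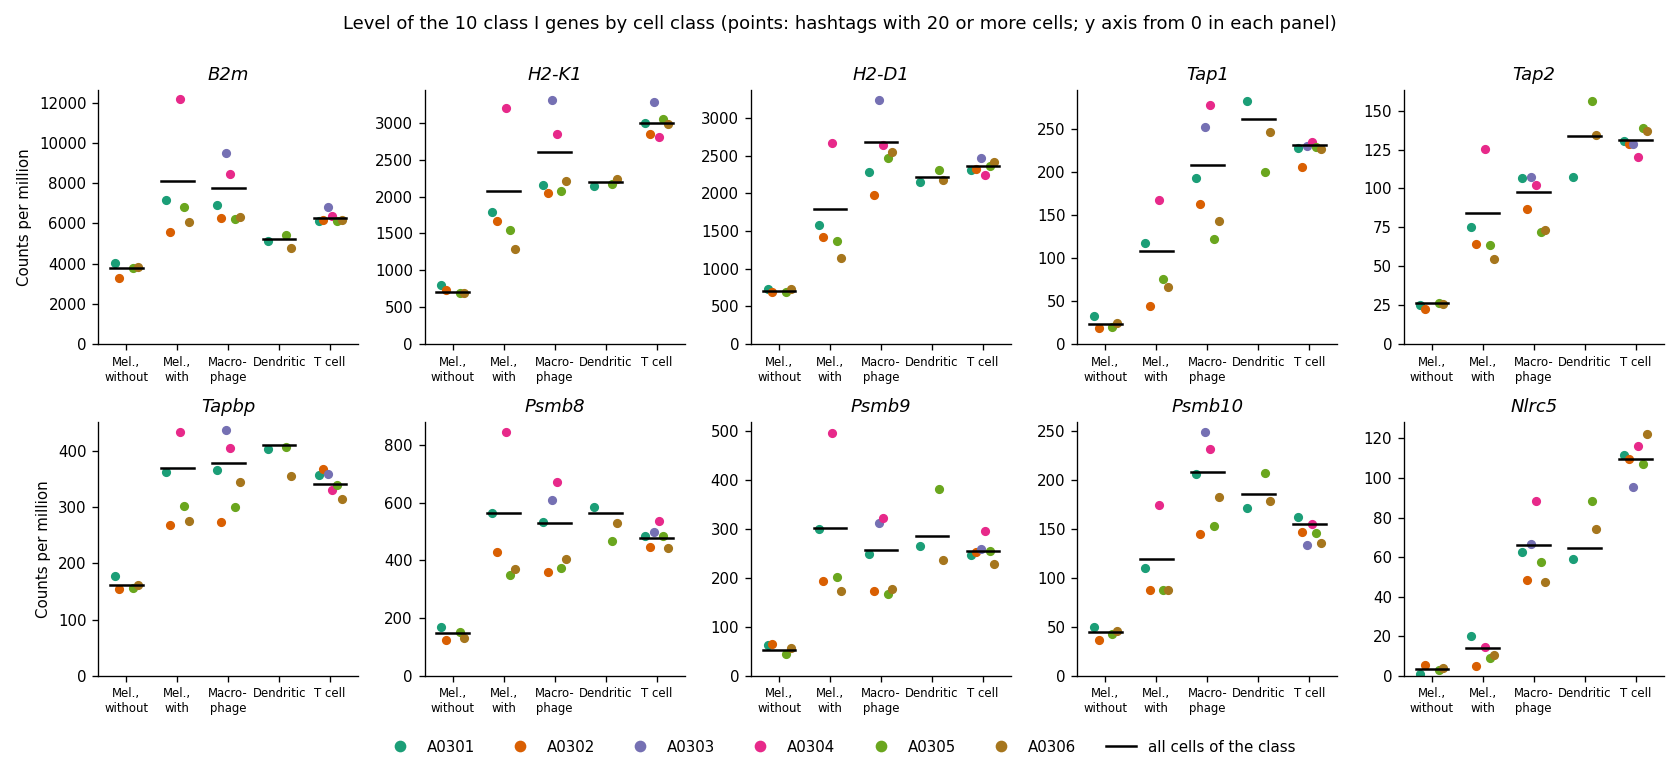
CPM of the 10 members in melanoma-like (Mel.) cells without and with Ubd or Iigp1, macrophage-like, dendritic cell-like and T cell-like cells; points are hashtags with 20 or more cells, bars all cells of the class. T cell points lie close together, melanoma cells without Ubd or Iigp1 are lowest for all 10 genes, and A0304 is the highest melanoma point for 9 of them.

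T cell values lay close together over hashtags. B2m ran from 6114 to 6821 CPM with a median of 6158 over 6 hashtags, H2-K1 from 2804 to 3285 (median 2992), Tap1 from 206 to 235 (median 229), Psmb9 from 228 to 295 (median 254) and Nlrc5 from 95.3 to 122. Macrophage-like cells spread more: B2m ran from 6205 to 9493 CPM (median 6615), H2-K1 from 2048 to 3314 (median 2183), Tap1 from 122 to 278 (median 178), Psmb9 from 166 to 321 (median 213) and Nlrc5 from 47.6 to 88.3 (median 60.2). A0303 and A0304 held the highest macrophage values for 9 of the 10 genes, Tap2 being the exception.

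None of the 10 genes was called between macrophage-like and T cell-like cells, with a median log2 ratio of 0.08 against -0.25 over 14802 genes, of which 18.6% were called. The sign of this median turned under several alternatives. It was -0.04 on cells thinned to 20000 counts, -0.09 within hashtags, -0.12 without cells holding marker genes of other classes and -0.02 without hashtag A0303. Without the cluster led by Klra7 it was 0.02. Nlrc5 was lower in macrophages in all 6 hashtags (-0.73, -1.35 to -0.39; 66.1 against 109 CPM) and Tap2 likewise (-0.42, -0.95 to -0.24), and B2m was higher in all 6 (0.30, 0.02 to 0.48). Macrophage barcodes carried T cell markers at 2388 CPM, 38.7% of the 6173 CPM in T cells. In the 492 macrophage-like cells without counts of 5 or more for Cd3d, Cd3e, Cd3g, Trac or Trbc2 these markers summed to 40.2 CPM, Nlrc5 stood at 50.6 CPM, Tap1 at 193, Psmb9 at 209 and B2m at 7740 CPM. Without cells holding marker genes of other classes the log2 ratio of Nlrc5 became -1.11 and was called.

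Dendritic cell-like cells had 5244 CPM of B2m, 262 of Tap1, 286 of Psmb9 and 64.8 of Nlrc5, with none of the 10 called against macrophages (13.4% of 12664 genes were called; median log2 ratio 0.03) over 3 hashtags. B2m (-0.56) and H2-D1 (-0.28) were lower in all 3 hashtags. Tap1 (0.33), Tap2 (0.44), Tapbp (0.12), Psmb8 (0.09) and Psmb9 (0.15) were higher in all 3. With 3 hashtags a shared sign is a weak criterion, and the share of all genes that meet it was not determined. Neutrophil-like cells, of which no hashtag had 20, stood apart for the immunoproteasome: Psmb8 was at 168 CPM, Psmb9 at 62.5 and Psmb10 at 40.8, near the melanoma cells without Ubd or Iigp1 (147, 53.1 and 44.3 CPM), while Tap1 (190 CPM) and Nlrc5 (85.9 CPM) were near the other leukocytes. Their median depth was 9255.5 counts, and with no hashtag range this stands as a value only.

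The same split by Ubd or Iigp1 was made in the leukocytes. Among macrophage-like cells (653 with, 859 without; median depth 94400 and 56858 counts) none of the 10 genes was called, where 1.12% of 12361 genes were, and the median log2 ratio was 0.42, with Tap1 at 0.69 (156 to 252 CPM), Psmb9 at 0.55 and Psmb8 at 0.52 and B2m at 0.30. All but H2-D1 and Nlrc5 were higher in each of 5 hashtags, Tap1 by 0.39 to 0.82. The share of all genes with 1 sign in these 5 hashtags was not determined, and the cells with Ubd or Iigp1 were deeper. Without the cells holding marker genes of other classes, Tap1 (1.03) and Psmb9 (1.00) were called, with the share of all genes called under this filter not given here. Among T cell-like cells (994 with, 6631 without) none was called either (1.06% of 13477 genes were), with a median of 0.31 and Tap1 highest at 0.55 (215 to 315 CPM; 0.23 to 0.79 over 6 hashtags); B2m, H2-D1, Tap2 and Psmb8 were also higher in all 6. The macrophage markers were at 380 and 202 CPM in these T cells with and without Ubd or Iigp1; their part in the result was not tested.

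For 9 of the 10 genes, all but Nlrc5, the range of the ratio over melanoma hashtags lay wholly above its range over macrophage hashtags, which held for 2.78% of the 11070 genes examined in both (ranges apart in either direction, 3.82%). The same 9 lay above the range over T cell hashtags, as did 2.6% of 11487 genes (either direction, 3.47%). The split is by 5 counts in classes of unequal depth, and in melanoma the cells with Ubd or Iigp1 had a median of 616 CPM of both genes. The median log2 ratio of Ubd and Iigp1 themselves was 9.15 in melanoma-like, 5.05 in macrophage-like and 4.78 in T cell-like cells, so the splits are unlike in size. A floor in CPM, as used next, does not match the levels above it. With the cells set instead at 100 CPM or more of Ubd plus Iigp1 against those without the genes, an alternative added after seeing the data, the median log2 ratio of the 10 genes was 1.92 in melanoma-like cells (318 cells with the genes), 0.46 in macrophage-like cells (570 cells) and 0.33 in T cell-like cells (930 cells).

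**Figure D5:**
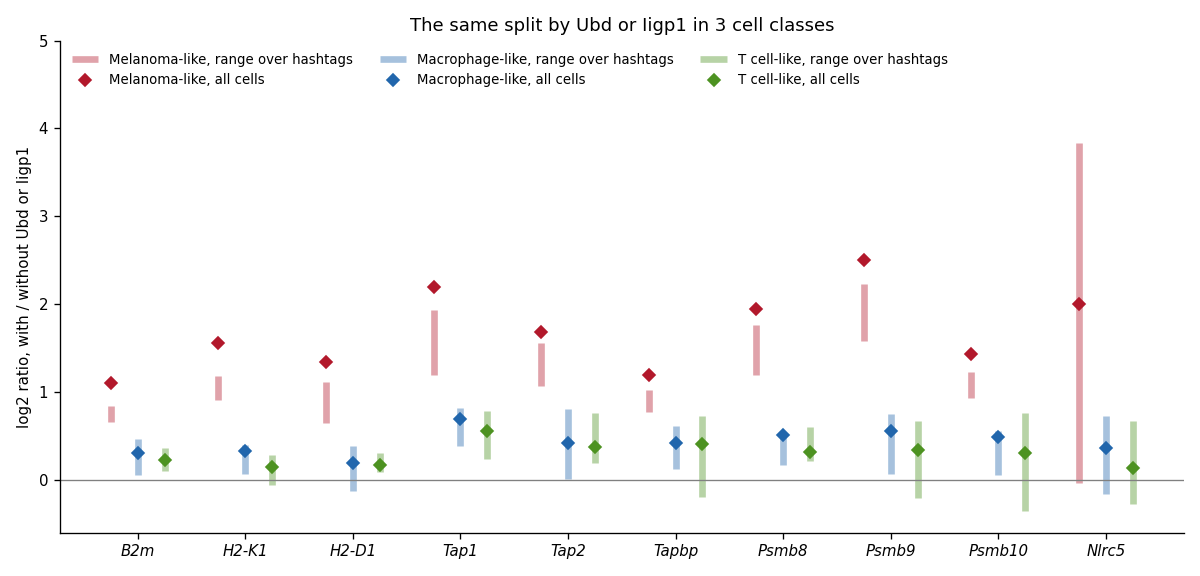
Log2 ratio with against without Ubd or Iigp1 for the 10 members in melanoma-like, macrophage-like and T cell-like cells; diamonds are all cells, bars the range over 4, 5 and 6 hashtags. Melanoma bars lie above the others for every gene but Nlrc5.

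Subsets of the leukocytes were compared in the same way. Macrophages with Cxcl9 and without Arg1 (684 cells) against those with Arg1 and without Cxcl9 (165 cells) had a median log2 ratio of 0.57 with none of the 10 called (6.07% of 11348 genes were). Psmb9 had 0.98 (321 against 162 CPM; 0.93 to 1.76 over 3 hashtags), Tap1 0.97 (254 against 129 CPM) and Psmb8 0.91, while H2-D1 had 0.21 with hashtags on both sides of 0.

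CD8 T cells with Tcf7 and without Havcr2, a precursor-like state, against those with Havcr2 and without Tcf7 had a median of -0.10, none called (9.24% of 10977 genes were). Cells of the unnamed clusters of 270 cells (Tcf7 among the leading genes) and 137 cells (Gzmk among them) were left out of this comparison. Psmb9 (-0.61, -0.70 to -0.17 over 3 hashtags), Psmb8 (-0.44, -0.80 to -0.17), Tap2 (-0.33), Tap1 (-0.25) and Psmb10 (-0.13) were lower in each hashtag, and H2-K1 was higher in each (0.19, 0.15 to 0.30). Foxp3-positive against Foxp3-negative CD4 cells had a median of 0.26, none called (6.62% of 9345 genes were), with Tapbp at 0.55 (0.16 to 0.73), Psmb10 at 0.48, B2m at 0.24 and H2-K1 at 0.12 higher and Nlrc5 at -0.43 (-0.75 to -0.28) lower in each of 3 hashtags. CD8 against Foxp3-negative CD4 cells had a median of 0.09, none called (5.49% of 12524 genes were). For these subsets, too, the share of all genes with 1 sign in each hashtag was not determined.

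A cluster of 30 T cells led by Mx1, Ifit1 and Rsad2, genes that type I interferon induces, had 9755 CPM of B2m, 4957 of H2-K1, 514 of Tap1, 1056 of Tapbp and 247 of Nlrc5. Psmb8, at 529 CPM, was near the 478 CPM of all T cells. No hashtag had 20 of these cells. The shallow unnamed cluster with melanoma markers (273 cells, median 7057 counts) had 6577 CPM of B2m, 1747 of H2-K1, 402 of Psmb8, 73.9 of Tap1 and 49.5 of Nlrc5.

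The genes outside all lists whose level over 8 classes was most like the mean of the 10 genes were Parp9 (Pearson's r 0.98), Zbp1 (0.97), Ifi203 (0.95), Mndal (0.95) and Psme2b (0.94); the classes share 1 library. For the 10 genes themselves r with their mean ran from 0.77 for Nlrc5 to 0.97 for H2-K1, B2m having 0.78.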

How the data were processed

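The mRNA and hashtag libraries of 1 capture were deposited by the authors as tables of whole-number counts per gene and barcode, and per hashtag and barcode. Cutadapt 2.10, Bowtie2 2.3.4.1 and 2.4.2, R 3.5.3 and the build GRCm38 are named in the submitters' processing notes. Whether counts are reads or molecules was not stated; the median non-zero count was 7.

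The 11318 barcodes kept were clustered with leidenalg 0.10.2 (resolution 1, 40 components) without the listed genes, and clusters were named from at least 3 detected markers (5 for T cells) and, other than T cells, a mean log2 fold of 1. Scrublet marked 0 cells, so doublets were not removed. Hashtags were called by likelihood ratio for 6249 cells, with a median of 12 hashtag counts per cell. Of the 7625 T cell-like cells 4108 had no hashtag call. Levels are summed counts scaled to CPM, and log2 ratios had 5 counts added to each sum, over genes with a mean sum of 100 or more. Poisson and binomial intervals are at 95%.

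All 10 genes are named. Other genes are named from the lists: the 3 highest and 3 lowest examined, the called genes of the class I list and genes of known role in it, and like genes are the 5 most correlated. The genes and lists were chosen with earlier results of these data known. The alternatives covered gate, scaling, thinning, clustering, doublets, filters and each hashtag left out. The ratio was tested on simulated data.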

Additional observations from a re-analysis of the deposited data

Results flagged for a closer look

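Each gene's log2 ratios over 4 to 6 hashtags were searched for one standing far from the others, in 50 sets; chance marks about 1 in 20 such sets. H2-K1 in melanoma-like cells with against without Ubd or Iigp1 was at 0.91 in hashtag A0306, where the nearest of the other hashtags was at 1.16. Psmb9 in melanoma-like cells without Ubd or Iigp1 against T cell-like cells was at -2.53 in A0305, with the nearest at -1.98. B2m in macrophage-like cells with against without Ubd or Iigp1 was at 0.47 in A0306, with the nearest of the other 4 at 0.13.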

How the results depend on the processing

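No paired analysis was possible because the labels' samples are the mRNA and hashtag libraries of 1 capture, so no groups share replicate numbers; ratios within hashtags compare cells of 1 hashtag each, and hashtags are not known to be replicates. Hashtags are few, of unknown genotype and assigned at low hashtag depth, which limits every spread given. For melanoma-like cells with against without Ubd or Iigp1, the median log2 ratio of the 10 genes (1.62) was 2.30 with both genes required, 1.93 on cells thinned to 20000 counts, 1.47 with classes from summed markers, 1.92 with Ubd plus Iigp1 at 100 CPM or more and 1.27 as the median of within-hashtag ratios; the last 2 were chosen after seeing the data. The count of all genes called (2.32% of those examined) was 869 of 12316 (7.06%) with both genes, 191 of 8562 (2.23%) thinned and 519 of 24050 (2.16%) with no minimum. With hashtags left out in turn, the median ran from 1.55 to 1.75, the members called from 9 to 10 and all genes called from 288 (2.23%) to 392 (3.16%). For melanoma-like cells without these genes against T cell-like cells, the median (-1.95) was -1.86 thinned, -1.87 as a mean over cells, -1.80 under median-of-ratios scaling and -1.86 within hashtags. That scaling moved all genes by 0.25 in macrophage-like against T cell-like cells, whose members' median became 0.34. With both genes required the median was 0.60 in macrophage-like cells (29 with both, 1 hashtag) and 0.47 in T cell-like cells (4 with both, no hashtag with 20 cells). The cause of these shifts was not tested. Without the Klra7-led cluster, also chosen after seeing the data, the medians of the comparisons with or within T cell-like cells were 0.02, -1.94 and 0.27. The uncalled macrophage-like against T cell-like median (0.08) ran from -0.02, without A0303, to 0.13 with hashtags left out. Of single-gene values and counts of members called under these alternatives, 938 stayed within the spread and 104 moved beyond it.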
